A study of Mus musculus with 6 samples.

Results

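The genes of tumour necrosis factor (TNF) superfamily ligands and receptors were examined in mouse epididymal white fat. A gene was a member if a row of the array table named it and no other gene, and if its symbol was Tnfsf or Tnfrsf with a number (Tnfrsf17 left out) or one of the older family symbols such as Tnf, Fas and Cd40, with Ngfr left out. Of 22180 genes with a row of their own, 41 were members, 16 ligands and 25 receptors, and each had 1 row. The ligand genes Tnfsf12 and Tnfsf13 shared a single row and were no members. That shared row read 7.74, 7.88 and 7.62 on the 3 wild-type arrays and 7.42, 7.65 and 7.60 on the 3 transgenic arrays (log2 signal). The groups overlapped, with a difference of -0.19 ± 0.12 (standard error, SE).

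Both groups were male C57BL/6 mice of 8 months that had received the high-fat diet D12492 for 21 weeks. One group was wild type (WT, 3 arrays) and the other carried a Blnc1 transgene described as adipose-specific (Tg, 3 arrays). The product of Blnc1 is a long noncoding RNA that promotes thermogenic gene expression in fat. The promoter that drives the transgene, the number of founder lines and the littermate status are not given in the sources used here. The replicates are named biological ones, so an array is treated here as a single mouse.

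TNF family ligands are mostly trimeric proteins on the surface of immune cells, from which some are cut and released. Their receptors fall into those with a death domain, which can start apoptosis, those that bind TRAF adaptors and turn on the transcription factor NF-kB, and decoys that catch ligand without passing on a signal. In obese fat, Tnf is made largely by macrophages and is known to impair insulin action in adipocytes. Many other members act between T cells, B cells and antigen-presenting cells.

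Promoter sequence is shown for 5 members whose values are described below. Lymphotoxin beta (Ltb), Tnf and lymphotoxin alpha (Lta) are neighbours on chromosome 17 with no coding gene between them. Fas is a death receptor with separated groups on the higher side, and Tnfrsf1b is a Tnf receptor with separated groups on the lower side. Each line holds the 250 bases before the start of the gene, 5′ to 3′ on the gene's strand, from RefSeq on GRCm38.p6, with motif matches in capitals.

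Ltb: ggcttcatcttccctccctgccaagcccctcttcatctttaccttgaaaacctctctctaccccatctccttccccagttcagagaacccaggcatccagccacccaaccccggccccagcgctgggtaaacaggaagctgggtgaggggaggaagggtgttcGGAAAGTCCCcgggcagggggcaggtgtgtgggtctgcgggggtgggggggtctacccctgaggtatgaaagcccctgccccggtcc

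Tnf: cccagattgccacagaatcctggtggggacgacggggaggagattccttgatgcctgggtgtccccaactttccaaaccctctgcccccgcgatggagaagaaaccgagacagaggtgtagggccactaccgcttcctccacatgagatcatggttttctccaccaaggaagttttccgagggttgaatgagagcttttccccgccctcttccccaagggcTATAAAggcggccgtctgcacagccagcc

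Lta: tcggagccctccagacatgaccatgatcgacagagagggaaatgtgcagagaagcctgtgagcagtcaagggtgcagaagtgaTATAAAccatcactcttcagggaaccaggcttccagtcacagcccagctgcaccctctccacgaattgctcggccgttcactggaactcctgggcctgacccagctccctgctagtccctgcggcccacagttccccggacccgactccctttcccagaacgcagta

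Fas: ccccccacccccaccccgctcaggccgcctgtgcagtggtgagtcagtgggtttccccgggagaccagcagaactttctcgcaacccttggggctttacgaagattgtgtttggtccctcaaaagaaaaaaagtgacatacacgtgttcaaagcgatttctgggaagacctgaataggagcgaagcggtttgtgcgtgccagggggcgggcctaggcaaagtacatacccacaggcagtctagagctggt

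Tnfrsf1b: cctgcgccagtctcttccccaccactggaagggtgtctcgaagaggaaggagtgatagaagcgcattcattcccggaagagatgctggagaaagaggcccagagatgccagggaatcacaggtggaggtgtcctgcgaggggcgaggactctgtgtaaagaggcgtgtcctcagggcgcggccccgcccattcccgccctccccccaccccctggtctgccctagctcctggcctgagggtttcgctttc

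These stretches lie at chr17:35194257-35194506 (Ltb, plus strand), chr17:35202008-35202257 (Tnf, minus strand), chr17:35205352-35205601 (Lta, minus strand), chr19:34290409-34290658 (Fas, plus strand) and chr4:145246871-145247120 (Tnfrsf1b, minus strand). RefSeq promoters of 300 bases, 250 before to 50 after the start, were matched for 32 of the 41 members, with 36 promoters in all. Searched on both strands were the NF-kB consensus, the p53 half-site consensus and TATAAA. The NF-kB consensus was found in the Ltb window, beginning 87 bases before the start and reading on the opposite strand, and in promoters of Tnfrsf8 and Tnfrsf9. That is 3 of 36 member promoters (8.33%), against 4.51% of all 32851 promoters of that length. TATAAA lay 29 bases before the start of Tnf and 167 bases before that of Lta, and 16.7% of member promoters against 13.6% of all promoters held it. The p53 half-site was found in 4 of 36 (11.1%) against 8.36%, in promoters of Fasl, Tnfrsf25 and Tnfsf13b. None of the 3 motifs was found in the windows of Fas and Tnfrsf1b.

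Most members read lower in Tg than in WT, among them most ligands and lymphocyte receptors, while the death receptors Fas and Tnfrsf10b and the decoy Tnfrsf11b read higher. No member passed the test. Of the 41 members, 30 were lower in Tg and 11 higher, with a median log2 difference of -0.15, against -0.014 over all 41345 rows. In WT 1, Tg 1 and Tg 3 alone, a set explained below, 22 members were lower and the median was -0.014. By role, 14 of 16 ligands and 8 of 9 TRAF-binding receptors of lymphocytes were lower. Of the death domain receptors 4 of 6 were lower, with a median of -0.050, of the genes listed as decoy receptors 1 of 4, and of the other TRAF-binding receptors 3 of 6. The tallies depended on the arrays. In WT 1, Tg 1 and Tg 3 alone, 10 of 16 ligands, 3 of 9 lymphocyte receptors, 2 of 6 death domain receptors, 3 of 4 listed decoys and 4 of 6 other receptors were lower. Limma gave 0 of 41 members at an adjusted p of 0.05 or below (background 0% of all rows), with adjusted p between 0.31 and 0.97. At an unadjusted p under 0.05 there were 7 members (Tnfsf4, Tnfsf13b, Tnfrsf1b and Tnfrsf26 lower, Fas, Tnfrsf10b and Tnfrsf11b higher), where 10.3% of all rows and 9.82% of genes reach it. In 10 members (24.4%) the 3 Tg arrays lay all on 1 side of the 3 WT arrays, against 16.7% of all rows and 18.2% of genes. Both shares were somewhat above the background, and that difference was not tested. With 3 arrays per group, the smallest 2-sided p of an exact permutation test is 0.1.

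**Figure D1:**
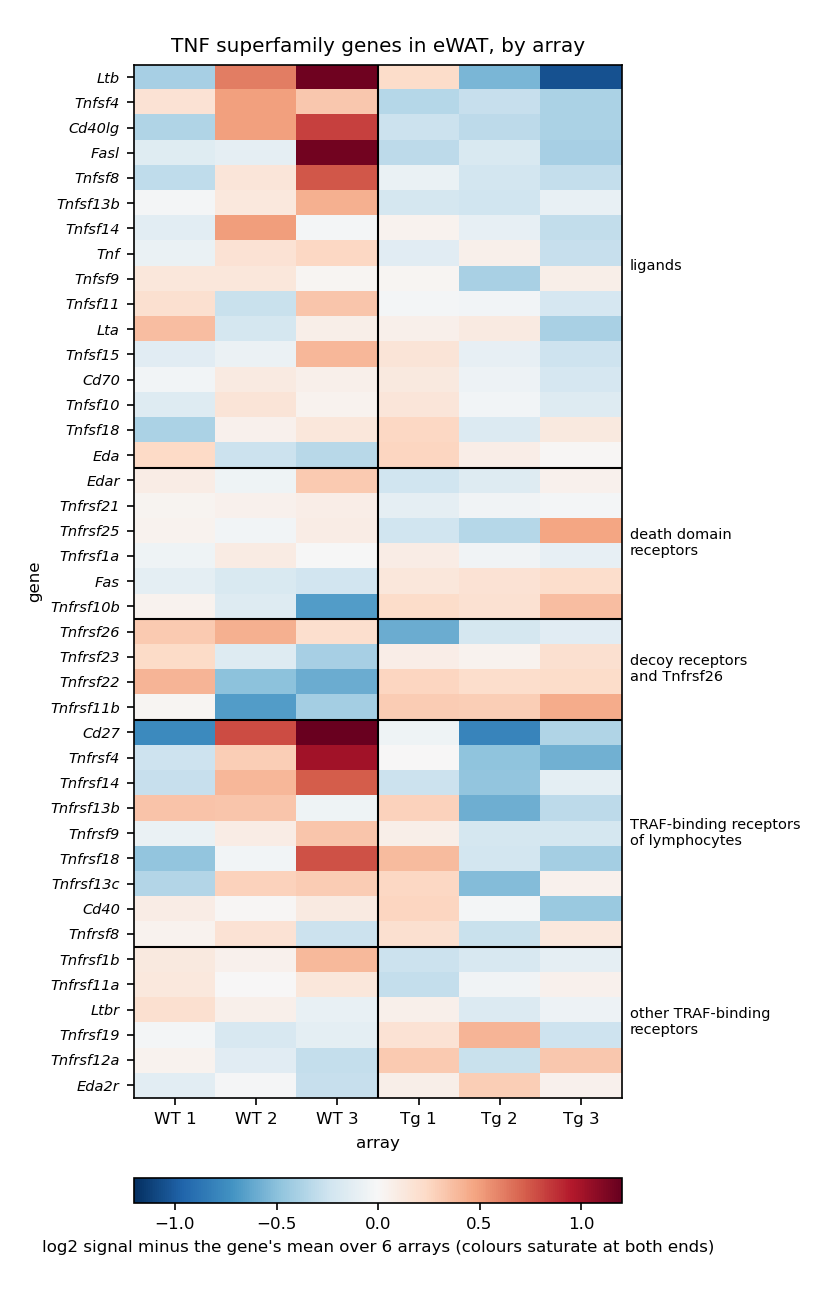
The signal of each of the 41 members (rows, grouped by role) on each array (columns), as log2 signal minus the gene's mean over the 6 arrays, red above and blue below that mean. Ltb, Cd27, Tnfrsf4 and Cd40lg are highest on WT 3 and WT 2 and not on WT 1, while Fas, Tnfrsf10b and Tnfrsf11b are above their mean on every Tg array.

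**Figure D2:**
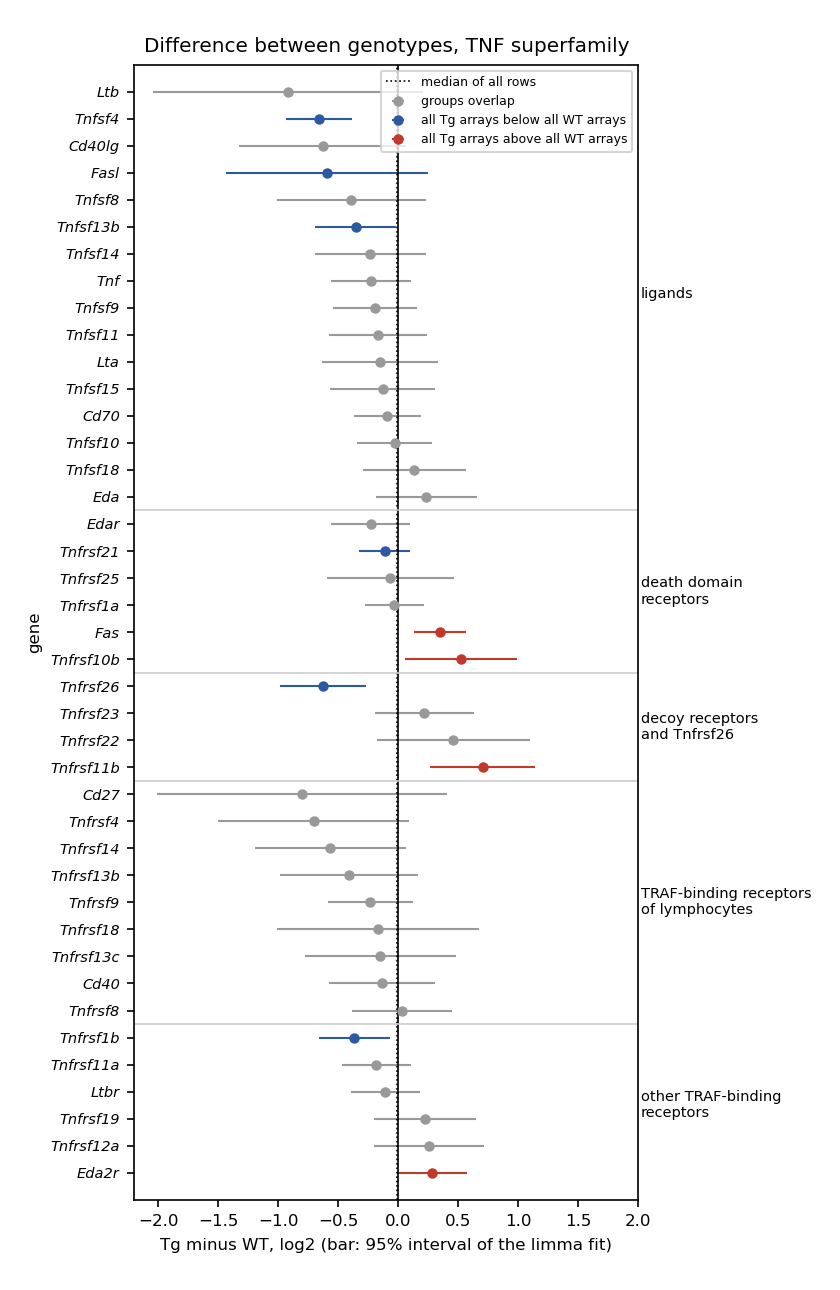
The difference between genotypes for each member, as log2 signal in Tg minus that in WT, with the 95% interval of the limma fit. Colour marks the 6 members whose Tg arrays lie below all WT arrays and the 4 whose Tg arrays lie above them, and the dotted line is the median of all rows.

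The values are deposited log2 signals after robust multi-array averaging (RMA), in which low signals are compressed. Among the members, 26 had a row mean above 2.67, the median of all row means, but only 5 of the 16 ligands did (Ltb, Tnf, Tnfsf10, Tnfsf13b and Eda). Members below that median, among them the other ligands, are called dim. A list of 33 epididymis genes, of which 30 were measured and 23 had row means below that median, averaged 4.72 on Tg 2 and between 1.23 and 1.86 on the other arrays. Its summed linear signal ranged from 75.9 to 417 in WT and from 75.8 to 5485 in Tg. Among its genes, Gpx5 read 10.77 on Tg 2 and 3.22 on Tg 1, and Spink8 read 6.55 on WT 2 and 8.09 on WT 3, against 2.53 or less elsewhere. Values from WT 1, Tg 1 and Tg 3 alone, called the arrays without tract signal, are given beside the members with values on every array and where the sign turns. That comparison has only 1 WT array, and the part of tract RNA in the values was not tested. Its name is only a label, since the list mean was 1.48 on Tg 1 against 1.69 on WT 2 and 1.86 on WT 3. No row checks the genotype labels.

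The ligand Tnf itself read 5.93, 6.19 and 6.26 on WT 1 to WT 3 and 5.88, 6.08 and 5.74 on Tg 1 to Tg 3. The groups overlapped, with Tg 2 above WT 1, and the difference was -0.23 ± 0.14 (SE, 95% interval -0.57 to 0.10). It was -0.12 with only WT 1, Tg 1 and Tg 3. Tnfrsf1a, the death domain receptor through which Tnf signals in most cells, read 8.47, 8.63 and 8.52 in WT and 8.61, 8.48 and 8.43 in Tg. These values interleave, with a difference of -0.033 ± 0.10 and a 95% interval from -0.28 to 0.21. The sign turned to 0.048 in the arrays without tract signal.

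Tnfrsf1b, the other Tnf receptor, lacks a death domain and is abundant on leukocytes. It read 8.46, 8.40 and 8.73 in WT and 8.09, 8.16 and 8.24 in Tg, so every Tg array lay below every WT array. The difference was -0.37 ± 0.12 (1.29-fold, adjusted p = 0.41 in limma), and -0.29 in the 3 arrays without tract signal. Within each array, Tnfrsf1b minus Tnfrsf1a was -0.012, -0.23 and 0.21 in WT and -0.52, -0.33 and -0.19 in Tg, with Tg 3 just above WT 2. This contrast was chosen after its values were seen, so its exact permutation p = 0.2 is only descriptive.

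The neighbours of Tnf differed in size. Ltb, which forms the membrane-bound lymphotoxin with Lta and is made by lymphocytes, had the lowest difference of all members at -0.92 ± 0.47. It read 4.21, 5.21 and 5.77 in WT and 4.82, 4.05 and 3.56 in Tg. Tg 1 lay above WT 1, so the groups overlapped and the adjusted p was 0.55 in limma. Without WT 3 the difference was -0.56, and the arrays without tract signal gave -0.014. Lta was dim, at 1.67 ± 0.29 in WT and 1.51 ± 0.28 in Tg (SD, n = 3), a difference of -0.15 that was -0.54 in the arrays without tract signal. The receptor of the membrane-bound lymphotoxin is Ltbr, known from lymphoid organ formation and expressed on stromal cells. It read 7.16, 7.02 and 6.87 in WT and 7.02, 6.80 and 6.90 in Tg. Its groups overlapped, with a difference of -0.11 ± 0.12, or -0.19 with only WT 1, Tg 1 and Tg 3.

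Tnfsf4, the OX40 ligand that costimulates T cells, was dim but separated the groups. It read 1.48, 1.80 and 1.63 in WT and 0.96, 1.03 and 0.93 in Tg. Each Tg array lay below each WT array, and the difference of -0.66 ± 0.11 (1.58-fold, 95% interval -0.94 to -0.39) had the smallest adjusted p of the members, 0.31 in limma. It was -0.53 in the 3 arrays without tract signal, and between -0.74 and -0.58 when any 1 array was left out. All 6 values are below the median of all row means, and detection calls were not used here.

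Its receptor Tnfrsf4 (OX40), a marker of activated and regulatory T cells, read 3.50, 4.04 and 4.76 in WT and 3.75, 3.26 and 3.17 in Tg. Tg 1 exceeded WT 1, and the difference was -0.71 ± 0.33 (adjusted p = 0.52 in limma). Without WT 3 it was -0.38, and -0.042 in WT 1, Tg 1 and Tg 3 alone. The receptor minus ligand contrast of this pair was 2.46 ± 0.58 in WT and 2.42 ± 0.32 in Tg (SD, n = 3), a difference of -0.045.

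Tnfsf13b (BAFF), the survival factor of B cells that myeloid cells secrete, read 6.12, 6.27 and 6.57 in WT and 5.93, 5.91 and 6.05 in Tg. The groups were apart by a narrow margin, from 6.05 on Tg 3 to 6.12 on WT 1. The difference was -0.36 ± 0.14 (adjusted p = 0.46 in limma), and -0.23 without WT 3 and -0.12 in the 3 arrays without tract signal. Its receptors on B cells overlapped between the groups, the dim Tnfrsf13b at -0.41 ± 0.24 and Tnfrsf13c at -0.15 ± 0.26. Tnfrsf13c had the other sign in the arrays without tract signal, at 0.50, and without Tg 2, at 0.073.

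Most macrophage markers and all mast cell markers were lower beside these genes. All 16 macrophage markers were measured and had row means above the median of all rows. Of these, 14 were lower in Tg. Cd163 was higher by 0.64 with separated groups, and Marco by 0.037 with overlap. The mean log2 signal of all 16 was 8.90, 8.96 and 9.07 in WT and 8.76, 8.71 and 8.75 in Tg. Their summed linear signal ranged from 14158 to 15324 in WT and from 12418 to 12685 in Tg. All 10 mast cell markers were also lower, averaging 5.34, 6.48 and 6.18 in WT and 4.87, 4.61 and 4.46 in Tg, with summed signals of 1291 to 2523 and 627 to 884. Of 12 neutrophil markers, 8 were lower and 4 higher. Their means were 2.16 in WT and 1.97 in Tg with overlapping groups, and 9 had row means below the median of all rows. In bulk tissue, fewer cells of a type and less RNA per cell cannot be told apart. The part of these markers in the values of Tnfrsf1b, Tnfsf13b, Tnfsf4 and Tnfrsf26 was not tested.

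Receptors that costimulate lymphocytes were lower in 8 of 9 cases with a median of -0.23, but in the arrays without tract signal 6 of 9 were higher and the median was 0.093. In none of the 9 were the groups apart. Cd27, a costimulatory receptor of lymphocytes, read 4.12, 5.67 and 6.08 in WT and 4.84, 4.10 and 4.52 in Tg. WT 1 stood with the Tg arrays, below Tg 1 and Tg 3, and the difference was -0.80 ± 0.50. Without WT 3 it was -0.41, and the arrays without tract signal gave the other sign, at 0.56. The ligand of Cd27, Cd70, was dim, at 0.46 ± 0.072 in WT and 0.36 ± 0.16 in Tg (SD, n = 3).

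Tnfrsf14 (HVEM), which binds Tnfsf14 (LIGHT), read 4.99, 5.67 and 5.99 in WT and 5.01, 4.79 and 5.15 in Tg. Here too WT 1 lay among the Tg arrays. The difference was -0.57 ± 0.26, then -0.34 without WT 3 and 0.093 in the 3 arrays without tract signal. Tnfsf14 was dim and overlapped, at -0.23 ± 0.19, with 0.0040 in those arrays.

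Cd40, through which T cells license B cells and macrophages, read 4.43, 4.35 and 4.45 in WT and 4.60, 4.32 and 3.90 in Tg. Tg 1 was the highest and Tg 3 the lowest of all arrays, and the difference was -0.14 ± 0.18 (-0.18 in the arrays without tract signal). Its T cell ligand Cd40lg read 1.39, 2.24 and 2.57 in WT and 1.49, 1.44 and 1.38 in Tg. Only WT 2 and WT 3 stood above the Tg arrays, so the difference of -0.63 ± 0.29 was -0.38 without WT 3 and 0.045 in the 3 arrays without tract signal.

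Further lymphocyte receptors differed less than Cd27, Tnfrsf4 and Tnfrsf14. Tnfrsf18 (GITR) read -0.17 ± 0.35 and Tnfrsf9 (4-1BB) -0.23 ± 0.15, and their ligands Tnfsf18 and Tnfsf9 read 0.13 ± 0.18 and -0.20 ± 0.15. Tnfrsf8 (CD30) was dim and the exception in direction at 0.030 ± 0.17, and its ligand Tnfsf8 read -0.39 ± 0.26. A row shared by Tnfrsf18 and the gene model Gm16008 differed by 0.030 ± 0.11. The arrays without tract signal gave the other sign for Tnfrsf18 (0.46), Tnfrsf9 (0.0076) and Tnfsf8 (0.12).

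T and NK cell markers had the same order of arrays as Ltb, Cd27 and Cd40lg within WT. All 22 measured of 26 listed markers were lower in Tg, with means of 3.56, 4.69 and 5.22 in WT and 4.05, 3.74 and 3.56 in Tg. Their summed linear signal was 1434 to 2341 in WT and 1119 to 1442 in Tg, so the groups overlapped, and 3 of the 22 had row means below the median of all rows. All 12 measured of 14 B cell markers were lower as well, with summed signals of 2757 to 4765 in WT and 2174 to 3536 in Tg. The B cell means were 4.92, 5.46 and 5.48 in WT and 5.43, 4.41 and 4.65 in Tg. Tg 1 thus lay near WT 2 and WT 3, and in both lists WT 1 was below Tg 1. WT 3 was the highest array in 6 of the 9 lymphocyte receptors and in 8 of the 16 ligands. How far these markers account for the lymphocyte members was not tested.

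**Figure D3:**
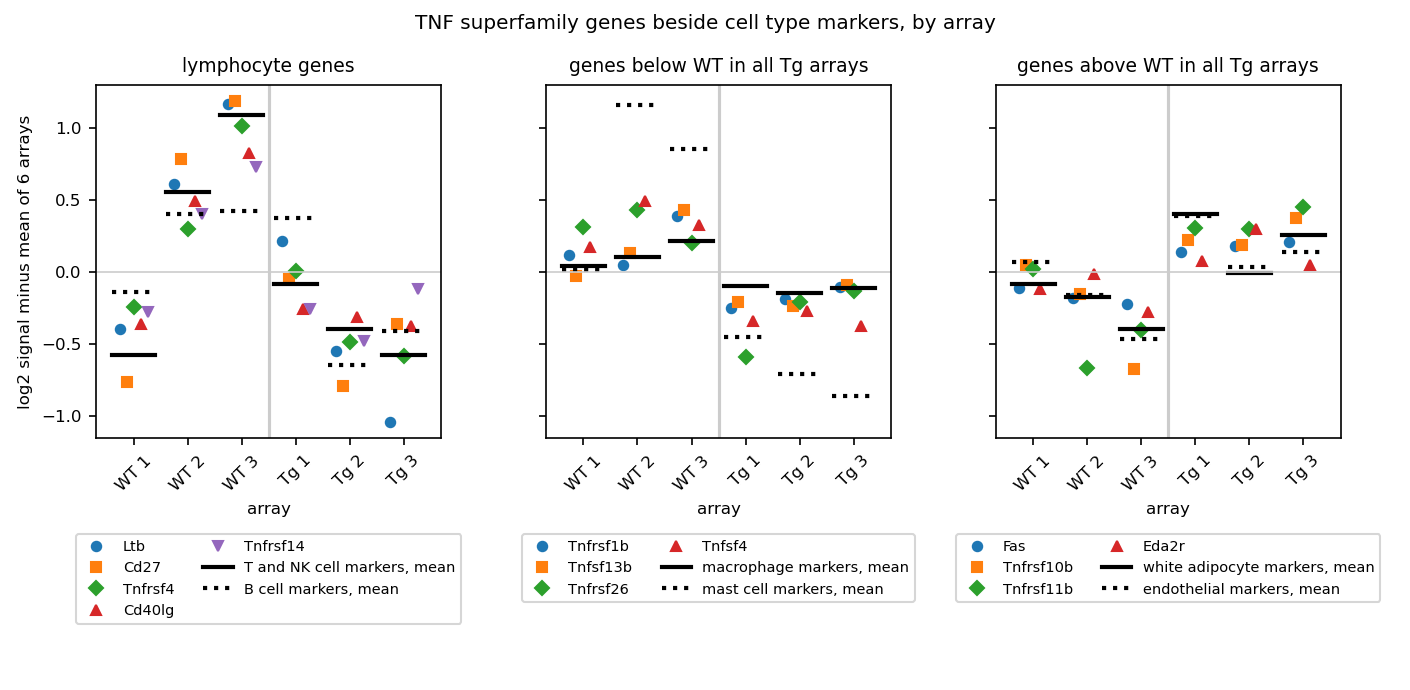
Log2 signal minus the mean over the 6 arrays for named members (coloured symbols) beside the mean of marker lists (black bars), by array, in 3 panels. On the left, 5 lymphocyte genes are high on WT 2 and WT 3 and low on WT 1, as are T and NK cell markers. The middle and right panels show members whose Tg arrays lie all below or all above WT.

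Of the 6 death domain receptors, Fas and Tnfrsf10b were higher and the other 4 lower. Fas, which triggers apoptosis when bound by Fas ligand, read 7.49, 7.42 and 7.38 in WT and 7.74, 7.78 and 7.81 in Tg. Every Tg array stood above every WT array, and the spread within a group was 0.057 (SD, n = 3) in WT and 0.037 in Tg. The difference was 0.35 ± 0.091 (1.27-fold, 95% interval 0.13 to 0.57, adjusted p = 0.35 in limma). It lay between 0.29 and 0.41 over the 15 alternatives tried, among them the 3 arrays without tract signal at 0.29.

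Fas ligand (Fasl), a product of cytotoxic lymphocytes, was dim. It read 1.37, 1.41 and 2.67 in WT and 1.20, 1.33 and 1.12 in Tg. The Tg arrays were lower than all WT arrays, but WT 3 stood far above the rest, and the difference of -0.60 ± 0.35 was -0.17 without it and -0.21 with only WT 1, Tg 1 and Tg 3. The receptor minus ligand contrast was 6.12, 6.02 and 4.71 in WT and 6.54, 6.45 and 6.69 in Tg. With Fas above and Fasl below WT on all Tg arrays, these groups had to be apart. The exact permutation p = 0.1 (the smallest possible) was thereby fixed and adds nothing to the 2 single genes. It was 0.73 after adjustment over 22 receptor and ligand pairs.

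Tnfrsf10b, the death receptor for the TRAIL ligand Tnfsf10, read 6.18, 5.98 and 5.46 in WT and 6.35, 6.32 and 6.50 in Tg. All Tg arrays lay above WT, and the difference was 0.52 ± 0.19 (1.44-fold, adjusted p = 0.45 in limma). WT 3 was the lowest array, and without it the difference was 0.32, against 0.25 in the 3 arrays without tract signal. Tnfsf10 read 5.77, 6.07 and 5.96 in WT and 6.06, 5.88 and 5.77 in Tg, with no order between the groups and a difference of -0.031 ± 0.13, which was 0.15 in the arrays without tract signal.

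The remaining death domain receptors showed small differences. Tnfrsf21 (DR6) read 7.43 ± 0.024 in WT and 7.31 ± 0.043 in Tg (SD, n = 3), with groups apart. Its difference of -0.11 ± 0.088 was -0.048 when each array was centred on its median. Tnfrsf25 (DR3) and its ligand Tnfsf15 were dim, at -0.068 ± 0.22 and -0.13 ± 0.18, and turned to 0.075 and 0.084 in the arrays without tract signal. Edar, the receptor that patterns hair and teeth, was dim at -0.23 ± 0.14.

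Tnfrsf11b, osteoprotegerin, is a secreted decoy that binds RANK ligand and TRAIL. It read 5.19, 4.50 and 4.77 in WT and 5.48, 5.46 and 5.62 in Tg. All 3 Tg arrays exceeded the highest WT array, and the difference of 0.70 ± 0.18 (1.63-fold, 95% interval 0.26 to 1.14, adjusted p = 0.35 in limma) was the highest of the members. In the 3 arrays without tract signal it was 0.36. WT 2 was the lowest array, and without it the difference was 0.54.

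The partners of osteoprotegerin read slightly lower in Tg, with overlapping groups. RANK ligand (Tnfsf11), which drives osteoclast formation, was dim at -0.17 ± 0.17, and its receptor RANK (Tnfrsf11a) read -0.18 ± 0.12. Osteoprotegerin minus RANK ligand was 3.56, 3.32 and 2.99 in WT and 4.06, 4.05 and 4.38 in Tg, apart between the groups with an exact permutation p = 0.1 (0.73 over the 22 pairs). Of those 22 pairs, 2 had separated groups, that of Fas and that of osteoprotegerin with RANK ligand. For single genes that share is 18.2%, and it was not computed for contrasts of other gene pairs.

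Tnfrsf22 and Tnfrsf23 are mouse decoy receptors for TRAIL, and Tnfrsf26 is a related receptor beside them on chromosome 7, with no coding gene between the 3. Tnfrsf26 read 5.39, 5.51 and 5.28 in WT and 4.49, 4.87 and 4.94 in Tg. The groups were apart, with a difference of -0.63 ± 0.15 (1.55-fold, adjusted p = 0.34 in limma) that was -0.68 in the 3 arrays without tract signal and -0.49 without Tg 1.

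Its neighbours pointed upward with overlapping groups. Tnfrsf22 read 5.04, 4.13 and 4.03 in WT and 4.88, 4.84 and 4.85 in Tg, so WT 1 was the highest array and the other WT arrays the lowest. Its difference was 0.46 ± 0.27, and -0.17 in the 3 arrays without tract signal. Tnfrsf23 differed by 0.21 ± 0.17, and by -0.092 in those arrays. Tnfrsf22 minus Tnfrsf26 was -0.35, -1.38 and -1.25 in WT and 0.40, -0.030 and -0.098 in Tg, and Tnfrsf23 minus Tnfrsf26 was 1.25, 0.75 and 0.73 in WT and 2.01, 1.59 and 1.66 in Tg. These contrasts were chosen after their values were seen, so the separation of the groups in both is only a description. That choice also leaves the exact permutation p = 0.1 of each, the smallest possible, without weight. Probe sequences were not used here, so how far related receptors share probes was not tested.

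**Figure D4:**
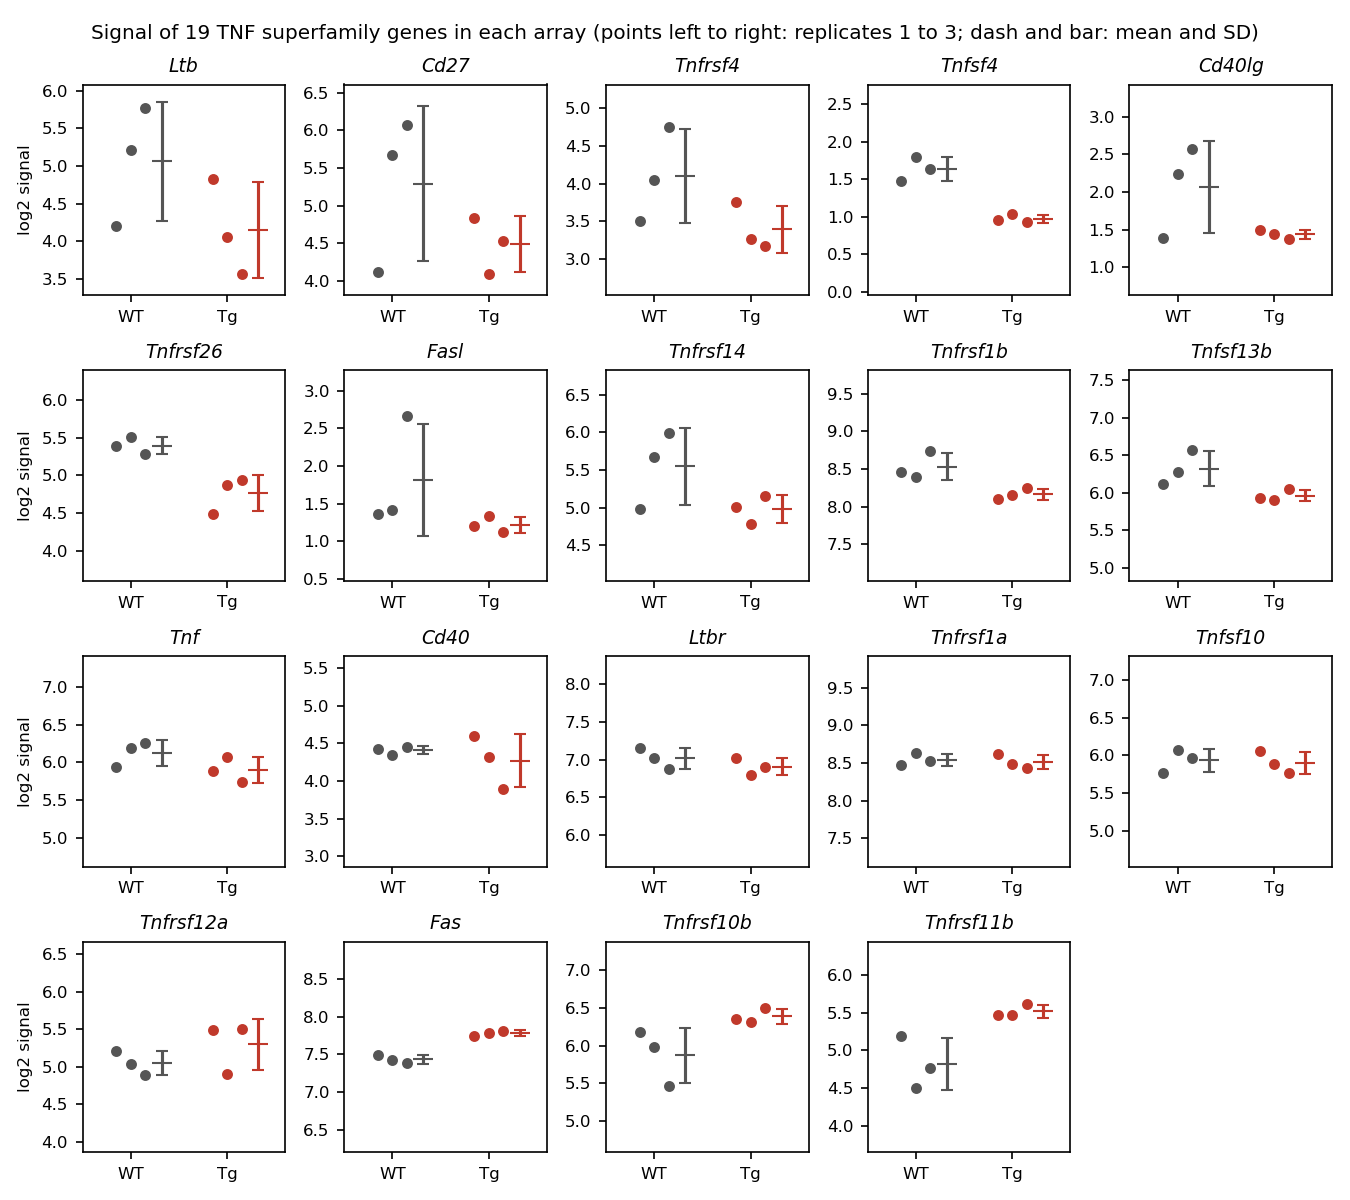
Log2 signal of 19 members on each array, with WT in grey and Tg in red, points from left to right for replicates 1 to 3, and a dash with a bar for the mean and SD. Panels run from the lowest to the highest difference, and all vertical axes span at least 2.8 log2 units. Tnfsf4, Tnfrsf26, Fas and Tnfrsf11b show separated groups, and in Ltb, Cd27 and Cd40lg WT 1 lies with the Tg points.

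The last receptors belong to tissue cells more than to lymphocytes. Tnfrsf12a (Fn14), the receptor for TWEAK, is induced in injured tissue. It read 5.21, 5.03 and 4.89 in WT and 5.49, 4.91 and 5.50 in Tg, with Tg 2 near the lowest WT array and a difference of 0.25 ± 0.19, or 0.28 in the arrays without tract signal. Eda2r, a receptor for ectodysplasin, lay above WT on all Tg arrays by a narrow margin, 4.17 ± 0.14 against 3.89 ± 0.13 (SD, n = 3), and differed by 0.28 ± 0.12. The ectodysplasin gene Eda differed by 0.23 ± 0.18 and Tnfrsf19 (TROY), a receptor of progenitor cells, by 0.22 ± 0.18, both with overlapping groups. In the arrays without tract signal these read -0.11 and -0.020.

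White adipocyte and endothelial markers were higher beside these members. All 18 measured of 20 white adipocyte markers were higher in Tg, averaging 9.35, 9.26 and 9.04 in WT and 9.84, 9.43 and 9.69 in Tg, with summed signals of 20070 to 23245 and 24126 to 28371. All 14 endothelial markers were higher, with means of 7.91, 7.69 and 7.38 in WT and 8.23, 7.88 and 7.98 in Tg, and summed signals of 3658 to 5147 and 5204 to 6199. Of 11 measured fibroblast and progenitor markers, 7 were lower and 4 higher, with means of 9.27 in WT and 9.26 in Tg. The part of the adipocyte and endothelial markers in the values of Fas, Tnfrsf10b, Tnfrsf11b and Eda2r was not tested.

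The pathway below the receptors was read from 3 lists. In the signalling chain of adaptors, kinases and NF-kB subunits, 41 of 46 listed genes had a row of their own, and 33 of them were lower in Tg and 8 higher, with a median of -0.14. None passed the threshold in limma, and 3 (7.32%) had an unadjusted p under 0.05, fewer than the 9.82% of all genes. Further, 9 (22.0%) had separated groups, against 18.2% of genes. The 3 were Ripk3, the kinase of necroptosis (-0.44 ± 0.090), the kinase gene Ikbke (-0.39 ± 0.12) and Rnf31, the catalytic subunit of the linear ubiquitin ligase (-0.28 ± 0.11). Ripk3 read 5.75, 5.77 and 5.78 in WT and 5.40, 5.29 and 5.30 in Tg, a tight separation. Tnfaip3 (A20), the feedback inhibitor of NF-kB, read -0.37 ± 0.17 with overlapping groups. On the higher side were Tab3 (0.17 ± 0.098), Daxx (0.17 ± 0.11), the NF-kB subunit gene Rela (0.18 ± 0.12) and Traf4 (0.16 ± 0.13). The tally and median of this list were not repeated in the arrays without tract signal. In those arrays Ripk3 read -0.40, Ikbke -0.25, Rnf31 -0.23 and Tnfaip3 0.032. Tab3 read 0.12 there, Daxx 0.15, Rela 0.0087 and Traf4 0.063.

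The 5 genes of shedding and its regulation differed little. Adam17, the protease that releases Tnf from the cell surface, read -0.19 ± 0.11, its partners Rhbdf1 and Rhbdf2 0.13 ± 0.15 and -0.042 ± 0.12, and the intramembrane proteases Sppl2a and Sppl2b -0.23 ± 0.12 and -0.059 ± 0.11. Of these, Sppl2a had separated groups (1 of 5, 20%, against 18.2% of genes). The median of the list was -0.059, with 4 of 5 lower. With median centring it was 0.0061, with 2 lower and 3 higher.

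Genes that NF-kB is known to induce split in direction, with 16 of 20 measured (22 listed) lower and 4 higher, a median of -0.30 and 0 past the threshold in limma. Unadjusted p was under 0.05 in 5 (25%, against 9.82% of genes), and 4 had separated groups (20%, against 18.2%). Tnfaip2 read 8.27, 8.59 and 8.55 in WT and 7.73, 7.97 and 7.96 in Tg, a separation of -0.58 ± 0.13. Bcl3, an atypical inhibitor of NF-kB, was lower by -0.36 ± 0.15 with separated groups, and the adhesion molecule gene Vcam1 by -0.57 ± 0.28 with overlap. Ptgs2 (cyclooxygenase) read 7.80 and 9.04 on WT 2 and WT 3 and from 3.27 to 3.96 elsewhere, and differed by -0.038 in the arrays without tract signal. Upward lay Sod2, the mitochondrial superoxide dismutase (0.34 ± 0.099), and the acute-phase gene Saa3 (0.49 ± 0.18), both with separated groups, and Ccl2 (0.32 ± 0.19) and Lcn2 (0.52 ± 0.41), both overlapping. Without Tg 2, the array with the highest mean of the epididymis list, Lcn2 read 0.066. In the arrays without tract signal Saa3 read 0.081, Lcn2 0.12, Ccl2 -0.13 and Vcam1 0.051. Tnfaip2 read -0.42 there, Bcl3 -0.10 and Sod2 0.22. The tally of this list and its median of -0.30 were not repeated in those arrays.

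**Figure D5:**
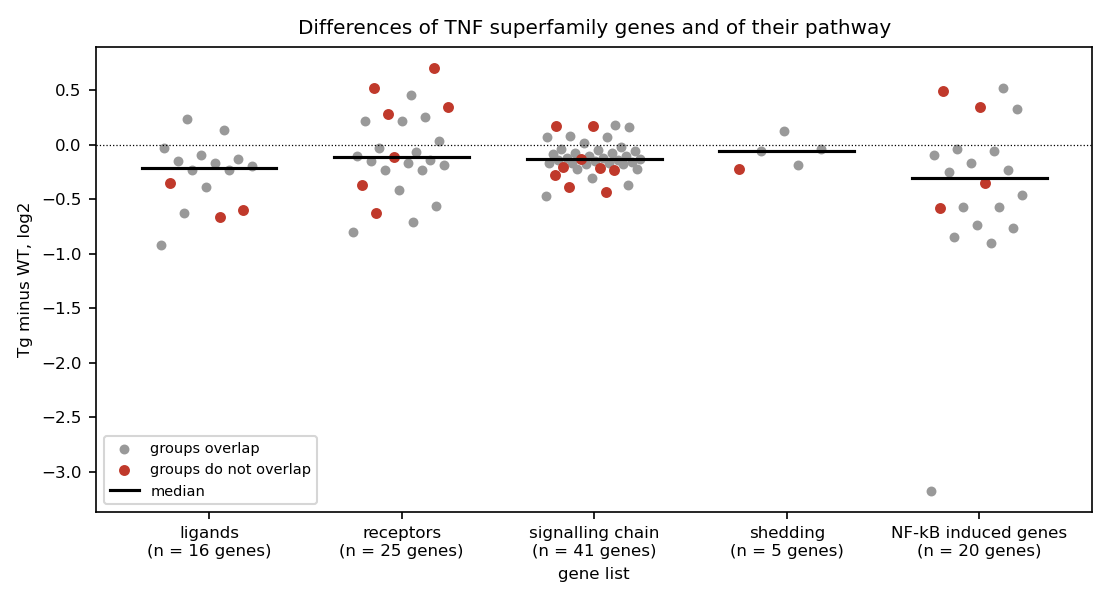
Differences between genotypes, as log2 signal in Tg minus that in WT, for ligands, receptors and 3 lists of pathway genes. Each point is a gene, red where the groups do not overlap, and the bar is the list's median, which lies below 0 in all 5 columns (with median centring of the arrays, that of shedding is 0.0061, the value of Sppl2b). The medians of the signalling chain and NF-kB lists were not repeated in the arrays without tract signal. The lowest point, in the NF-kB column, is Ptgs2.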

How the data were processed

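Biotinylated cDNA from fat pad RNA was hybridised to Affymetrix arrays, 1 per sample, per the labels' protocols. The deposited values are log2 signals, 1 per array and row, which the authors made with RMA, and limma is also named, per the submitters' processing notes. Versions, filters and the genome build of the table are not given in the sources used here. The table held 41345 rows, of which 23521 named 1 gene, 1814 several and 16010 none in the platform annotation. A gene's row was that with the highest mean.

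Tg and WT were compared over all rows by a 2-sided limma fit (version 3.58.1, R 4.3.3, functions lmFit and eBayes, no covariate, no filter), with Benjamini-Hochberg adjustment over all rows and a threshold of 0.05. The smallest adjusted p of any row was 0.196. A difference is the log2 mean in Tg less that in WT, and its SE comes from the fit. Array medians lay between 2.64 and 2.75, and centring them moved the median difference of all rows by 0.065. The fit was tested on simulated data. The number of arrays limits the precision. The labels do not state that equal replicate numbers mark a pair, so the replicate block was only an alternative.

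The members, lists and the set of arrays without tract signal were chosen with earlier results of these data known. Values on all arrays are given for members with separated groups and an unadjusted p under 0.05, for those differing by 0.5 or more, and for a fixed set including Tnf and its receptors. The receptor-receptor contrasts were chosen after their values were seen. From each pathway list up to 4 genes per direction with the smallest p are named. RefSeq promoters (GRCm38.p6) were used for sequence and the RefSeq gene table for neighbours.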

Additional observations from a re-analysis of the deposited data

How the results depend on the processing

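No setting gave a member, or any row, an adjusted p of 0.05 or below in limma, and the count of members lower in Tg stayed between 22 and 31 of 41. Leaving out the dim rows kept 26 members, of which 17 were lower. The number of members with separated groups was 10, ran from 12 to 22 when 1 array was left out, where 25.3% to 31.2% of all rows are separated, and was 28 in WT 1, Tg 1 and Tg 3 alone, where 67.7% of all rows are separated. The median difference was -0.15, between -0.22 and -0.12 without 1 array, -0.086 with median centring and -0.014 in those 3 arrays. The replicate block left the median at -0.15 and 6 members at an unadjusted p under 0.05, in place of 7, and changed no call. Same-numbered arrays did not deviate together (r = -0.038, 0.0073 and -0.043 over all rows). Such values cannot show whether the mice were paired by design. The sign was kept in 21 of the 41 members under every alternative. In the 3 arrays without tract signal, with WT 1 as the only WT array, the sign turned for Cd40lg (0.045), Tnfsf8 (0.12), Tnfsf14 (0.0040), Tnfsf15 (0.084), Tnfsf10 (0.15), Eda (-0.11), Tnfrsf25 (0.075), Tnfrsf1a (0.048), Tnfrsf23 (-0.092), Tnfrsf22 (-0.17), Cd27 (0.56), Tnfrsf14 (0.093), Tnfrsf9 (0.0076), Tnfrsf18 (0.46), Tnfrsf13c (0.50), Tnfrsf19 (-0.020), Tnfaip3 (0.032), Ccl2 (-0.13) and Vcam1 (0.051). The cause was not tested. Median centring turned Tnfsf10 (0.034), Tnfrsf1a (0.032), Sppl2b (0.0061) and Rhbdf2 (0.023), cyclic loess turned Tnfsf10 (0.0013), and array weights turned Tnfrsf25 (0.025). Without 1 array the range included both signs for Lta (-0.30 to 0.0069), Tnfsf15 (-0.24 to 0.037), Tnfsf10 (-0.11 to 0.038), Tnfsf18 (-0.025 to 0.25), Tnfrsf25 (-0.32 to 0.085), Tnfrsf1a (-0.085 to 0.010), Tnfrsf18 (-0.45 to 0.17), Tnfrsf13c (-0.37 to 0.073), Cd40 (-0.31 to 0.048), Tnfrsf8 (-0.091 to 0.17), Sppl2b (-0.12 to 0.0016) and Rhbdf2 (-0.13 to 0.035).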
